A study of Mus musculus with 6 samples.

Results

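The erythropoietin and oxygen sensing genes form a set of 10 mouse genes, Epo, Hif1a, Epas1, Arnt, Vhl, Egln1, Egln2, Egln3, Vegfa and Adm, measured in the kidney cortex with and without captopril. The members are all array probes that the platform annotation assigns to 1 of these symbols, detected or not, and they number 24 of the 45281 probes on the array. The 19057 genes named by at least 1 probe include all 10. The cortex came from male C57BL6 mice, 3 controls and 3 treated. Treated mice drank water with captopril, a daily 10 mg per kg of body weight over 7 days, from an age of 11 weeks, and the labels give an age of 12 weeks for every animal. The labels do not say what the controls drank. Captopril blocks the angiotensin-converting enzyme, no genetic change is described for either group, and each Illumina bead array carried RNA of 1 mouse.

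Erythropoietin is the hormone that drives red cell production, and in the adult it is made mainly by interstitial fibroblasts of the renal cortex. Its gene is switched on by hypoxia-inducible factors (HIFs), dimers of an oxygen-regulated alpha subunit and the stable beta subunit Arnt. When oxygen is plentiful, prolyl hydroxylases encoded by the Egln genes mark the alpha subunit, and the Vhl protein directs it to the proteasome, so that much of the pathway is regulated at the level of protein and not of transcript. Inhibitors of the angiotensin-converting enzyme are known to lower circulating erythropoietin, which is the reason to look at the hormone and its sensing pathway here.

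HIF dimers bind DNA at a short core of which ACGTG is a common form. Only this form, called the core below, was searched, and other forms were not. The upstream sequences below are shown because they hold this form in genes of the sensing pathway itself. The 250 bases upstream of the annotated start were searched for ACGTG on both strands in RefSeq promoters of build GRCm38.p6, which listed 9 of the 10 genes and 11 starts. Capitals mark the core, which reads CACGT where it lies on the other strand, and each window runs 5′ to 3′ on the strand of the gene.
Egln1 (chr8:124949308-124949332, minus strand): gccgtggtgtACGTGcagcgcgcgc
Egln2 (chr7:27166836-27166860, minus strand): cctcctgtcaACGTGcggttcgcgc
Egln3 (chr12:54204089-54204113, minus strand): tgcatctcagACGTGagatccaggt
Hif1a, distal (chr12:73907723-73907747, plus strand): acagacaagcACGTGagcggggcag
Hif1a, proximal (chr12:73907787-73907811, plus strand): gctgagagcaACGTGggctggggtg
Vegfa, its second listed start (chr17:46025360-46025384, minus strand): agtgcgtgccCACGTcagagagcaa

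The core began 68 bases before the start in Egln1, 48 in Egln2, 229 in Egln3 and 211 in the second start of Vegfa. In Hif1a it began 134 and 70 bases before the start, and the distal copy overlaps a CACGT that begins 1 base earlier, so it reads the same on both strands. The core was thus present in 5 of the 11 listed starts, against 16.6% of all 32851 mouse promoter windows of the same length. No match was found in this window of Epo, Arnt, Vhl, Adm, the first start of Vegfa or the second start of Egln2. Epas1 is named only. A match is a run of letters and says nothing of binding in these animals.

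Transcripts of 7 of the 10 genes were measurable, and none of their probes passed the test between captopril and control cortex. Epo and Adm were detected on no array, and Vhl on 1. The levels below are log2 signals after background correction and quantile normalization, and a probe counts as detected on an array where its detection p, the share of negative controls that were brighter, was under 0.05. Of the 24 probes, 11 were detected on all 6 arrays, 10 on none and 3 on some. Only probes with 3 or more detected arrays in all, from either group, were tested, which left 12 of the 24.

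In limma's moderated test over 16500 probes, 0 of the 12 were called at an adjusted p under 0.05, against 0.0182% of all tested probes, and every one of the 12 had an adjusted p of 0.995. At an unadjusted p under 0.05 there was 1 of the 12, with captopril lower, against a background of 4.28% (2.04% lower and 2.25% higher). The groups did not overlap in 2 of the 12, against 8.69% of all tested probes, with captopril above control in 1 (background 4.06%) and below it in 1 (background 4.63%). Differences, always captopril minus control, ran from -0.39 to 0.42 with a median of 0.004, beside -0.002 over all tested probes, and 6 were positive and 6 negative. These shares rest on too few probes to be set apart from the background. With 3 mice a group the precision is limited, and the 95% intervals of the 12 probes reached from -0.77 at the lowest to 0.87 at the highest. The labels do not say that replicates came from separate experiments, so the p-values measure the spread between these 6 samples.

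**Figure D1:**
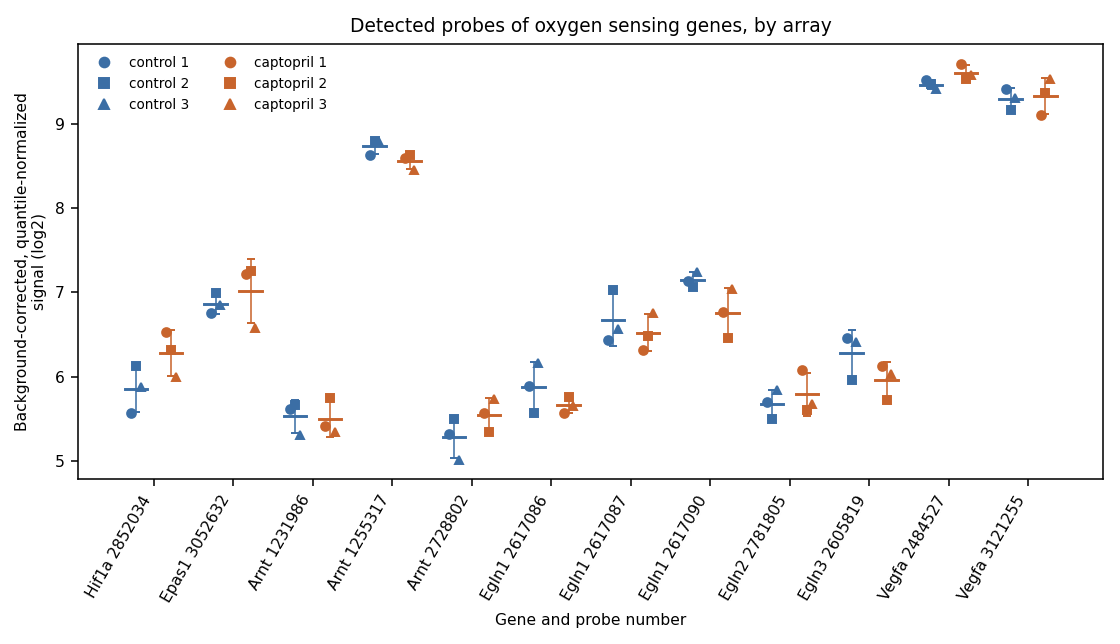
Background-corrected, quantile-normalized log2 signal (vertical axis) of the 12 tested probes (horizontal axis), 1 point per array, with group means and SD (n = 3 per group) as bars. Control and captopril points overlap for 10 of the 12 probes and are apart for Egln1 probe ILMN_2617090 and Vegfa probe ILMN_2484527.

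The hormone itself could not be measured in either group. The single Epo probe, ILMN_2742822, gave raw intensities of 141, 115 and 113 in control mice 1 to 3 and of 136, 118 and 138 in captopril mice 1 to 3. The dimmest probes called detected had raw intensities of 120 to 158, depending on the array, and Epo was below that limit on each. Its detection p lay between 0.139 and 0.875 over the 6 arrays.

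On the normalized scale Epo stood at 4.71, 4.88 and 4.40 in controls and at 4.51, 4.70 and 4.76 in captopril cortex. Relative to the detection limit of its own array it ranged from -0.66 to -0.19. The groups overlap, and all 6 values are those of probes without signal. In the authors' deposited values the means were 7.92 in control and 7.93 in captopril cortex, close to the 7.94 at which every array has its median over all probes. A difference in Epo transcript was therefore not detectable with this probe, and no fold is given.

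**Figure D2:**
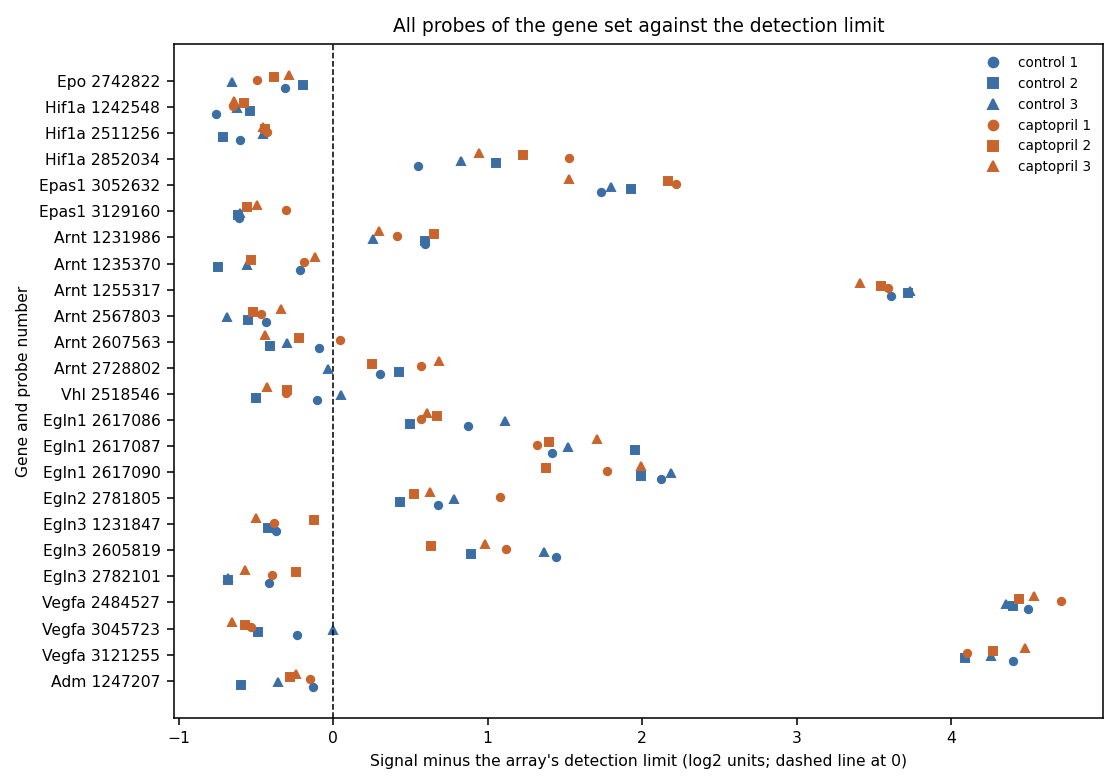
Normalized log2 signal of each of the 24 probes minus the detection limit of its own array (horizontal axis, log2 units, dashed line at 0), by gene and probe (vertical axis), 1 point per array. All 6 Epo points and all 6 Adm points lie left of the line, whereas Vegfa probes ILMN_2484527 and ILMN_3121255 lie more than 4 log2 units to its right.

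Of the oxygen-regulated alpha subunits, Hif1a encodes the form present in most cell types. Its probe ILMN_2852034 read 5.57, 6.13 and 5.88 in controls and 6.53, 6.32 and 5.99 in captopril cortex. Captopril mice 1 and 2 were above every control, whereas captopril mouse 3 was below control mouse 2, so the groups overlap. Controls averaged 5.86 ± 0.28 and captopril mice 6.28 ± 0.27 (SD, n = 3). The difference on the log2 scale was 0.42 (SE 0.19, 95% interval -0.03 to 0.87), which did not pass in limma (adjusted p = 0.995, unadjusted p = 0.0615). It was the largest positive difference among the 12 probes, and its size depended on the processing, at 0.08 in the authors' values, whose scale is compressed for dim probes. The other Hif1a probes, ILMN_1242548 and ILMN_2511256, were detected on no array.

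Epas1 encodes HIF-2 alpha, the alpha subunit known to drive Epo in renal interstitial cells. Its probe ILMN_3052632 read 6.75, 7.00 and 6.85 in controls and 7.22, 7.26 and 6.57 in captopril cortex. Captopril mice 1 and 2 were the highest of the 6 and captopril mouse 3 the lowest. The difference was 0.15 (SE 0.20, 95% interval -0.31 to 0.61), smaller than the SD of 0.38 within the captopril group. With 1 array left out it ran from 0.03 to 0.37, the highest value without captopril mouse 3. The second Epas1 probe, ILMN_3129160, was detected on no array.

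Arnt, the beta subunit shared by both HIFs and by the aryl hydrocarbon receptor, was covered by 6 probes, of which 3 were tested. ILMN_1255317, detected on all arrays, read 8.63, 8.79 and 8.79 in controls and 8.59, 8.64 and 8.46 in captopril cortex. Captopril mouse 2 lay just above control mouse 1, the lowest control, and the difference was -0.18 (SE 0.13, 95% interval -0.47 to 0.12).

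The other tested Arnt probes differed in sign between them. ILMN_1231986 had a difference of -0.03 (SE 0.16), which was positive in some alternatives, and ILMN_2728802 one of 0.27 (SE 0.17), with 1 control array below detection. In ILMN_2728802 the controls ran from 5.02 to 5.49 and the captopril mice from 5.34 to 5.73, so the groups overlap. Of the remaining 3 probes, ILMN_2607563 was detected on 1 captopril array and ILMN_1235370 and ILMN_2567803 on none. The annotation ties the 6 probes to 4 different transcript accessions.

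Egln1 encodes PHD2, the hydroxylase that sets HIF stability in most cells at normal oxygen. All 3 of its probes were detected on all arrays and all had lower means in captopril cortex. ILMN_2617090 read 7.14, 7.06 and 7.24 in controls and 6.77, 6.47 and 7.04 in captopril cortex. Every captopril value is below every control value, although captopril mouse 3 lies only just below control mouse 2. Controls averaged 7.15 ± 0.09 and captopril mice 6.76 ± 0.29 (SD, n = 3), which differ by -0.39 on the log2 scale (SE 0.17, 95% interval -0.77 to -0.002). This was the only member probe with an unadjusted p under 0.05 (0.0490), and it did not pass in limma over all probes (adjusted p = 0.995). In the authors' values the difference was -0.11.

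The other Egln1 probes gave smaller differences and overlapping groups. ILMN_2617086 read 5.89, 5.57 and 6.17 in controls and 5.57, 5.76 and 5.66 in captopril cortex, a difference of -0.22 (SE 0.17). ILMN_2617087 read 6.43, 7.03 and 6.57 against 6.32, 6.49 and 6.75, a difference of -0.16 (SE 0.19) that turned to 0.02 without control mouse 2. All 3 probes carry the same transcript accession in the annotation and were read on the same arrays, so they are no independent replicates of one another.

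Egln3 encodes PHD3, a hydroxylase whose gene is itself a known HIF target. Its probe ILMN_2605819 read 6.46, 5.96 and 6.42 in controls and 6.12, 5.72 and 6.03 in captopril cortex. Captopril mouse 2 was the lowest, while captopril mice 1 and 3 lay between control mouse 2 and the other controls. The difference was -0.32 (SE 0.18, 95% interval -0.74 to 0.10), and it was -0.06 in the authors' values. The other Egln3 probes, ILMN_1231847 and ILMN_2782101, were detected on no array.

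Egln2, which encodes PHD1, was represented by ILMN_2781805 alone. It read 5.70, 5.50 and 5.84 in controls and 6.08, 5.61 and 5.67 in captopril cortex. Only captopril mouse 1 was above all controls, and the difference was 0.11 (SE 0.17, 95% interval -0.28 to 0.50). Vhl, the substrate receptor of the ubiquitin ligase that takes up hydroxylated alpha subunits, had 1 probe, ILMN_2518546. It was detected on control mouse 3 alone (detection p 0.0342), with normalized values of 4.57 to 5.10 in controls and of 4.62 to 4.79 in captopril cortex, and was not tested.

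**Figure D3:**
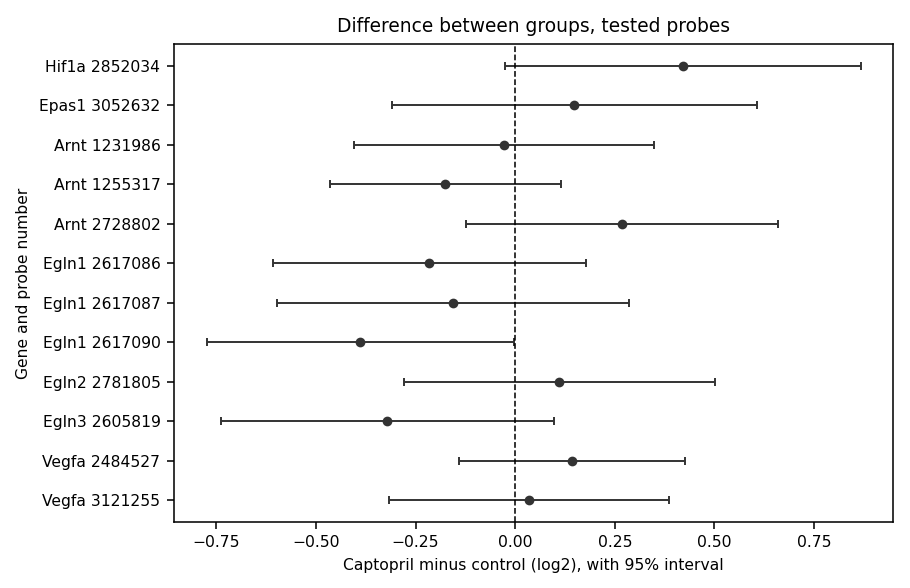
Difference in log2 signal, captopril minus control (horizontal axis), for the 12 tested probes by gene and probe (vertical axis), with 95% intervals from limma (n = 3 per group). The intervals of 11 probes span 0, and that of Egln1 probe ILMN_2617090 ends at -0.002.

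Of the HIF target ligands, Vegfa encodes the main growth factor of endothelial cells, which podocytes and tubules make in the kidney. ILMN_2484527 read 9.52, 9.47 and 9.41 in controls and 9.71, 9.53 and 9.58 in captopril cortex. Every captopril value was above every control value, though captopril mouse 2 lay only just above control mouse 1. The means of 9.47 ± 0.05 and 9.61 ± 0.09 (SD, n = 3) differ by 0.14 on the log2 scale (SE 0.12, 95% interval -0.14 to 0.43), or 1.10-fold, which did not pass in limma (adjusted p = 0.995, unadjusted p = 0.280).

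The second bright Vegfa probe, ILMN_3121255, did not separate the groups. It read 9.42, 9.16 and 9.31 in controls and 9.11, 9.36 and 9.53 in captopril cortex, with captopril mouse 1 the lowest and captopril mouse 3 the highest of the 6. Its difference was 0.04 (SE 0.15, 95% interval -0.32 to 0.39). The third, ILMN_3045723, was detected on no array and is at background in both groups. Its normalized values were 4.78, 4.58 and 5.05 in controls and 4.47, 4.52 and 4.39 in captopril cortex, which do not overlap, but signals below the detection limit carry no order of transcript levels.

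Podocyte markers, which mark a source of Vegfa, were lower in mean in captopril cortex in 6 of 6 tested genes, and 0 passed. Over all named genes at their brightest tested probe, 49.1% were higher in mean. Their median difference was -0.13, and the nephrin gene Nphs1, of the slit diaphragm, stood at -0.48 (SE 0.19, unadjusted p = 0.0332 in limma). The summed normalized intensity of the 6 genes was 3560 to 4080 in control and 3230 to 3880 in captopril arrays, and 3 of the 10 listed genes had no named probe. Their part in the Vegfa values was not tested, and in whole cortex cell number and RNA per cell cannot be told apart.

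Adm, which encodes the vasodilator peptide adrenomedullin, was detected on no array with its probe ILMN_1247207. It read 4.89, 4.47 and 4.69 in controls and 4.85, 4.81 and 4.81 in captopril cortex, with detection p of 0.106 to 0.693. As for Epo, no difference was detectable. Over the 12 probes that were not tested, 2 of 72 readings were called detected, and without the detection filter 0 of all 24 probes passed in limma.

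The other genes of the pathway were read from the same fit through lists of related genes, each gene at its brightest tested probe. The 8 lists of the pathway, its targets and the cells that make or carry its products, which include interstitial and red cell genes, held 153 genes, of which 101 were tested. Of all 9718 named genes 0% passed in limma and 49.1% were higher in mean, and of the 101 tested list genes 0 passed. At an unadjusted p under 0.05 there were 9, or 8.91%, of which 6 were higher and 3 lower in captopril cortex, against 3.69% of all named genes. Among the 6 is Ramp1, which was detected on captopril arrays alone and so entered the test through the group where it is high. The lists were chosen with earlier results of these data known, so that share is given as a description.

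**Figure D4:**
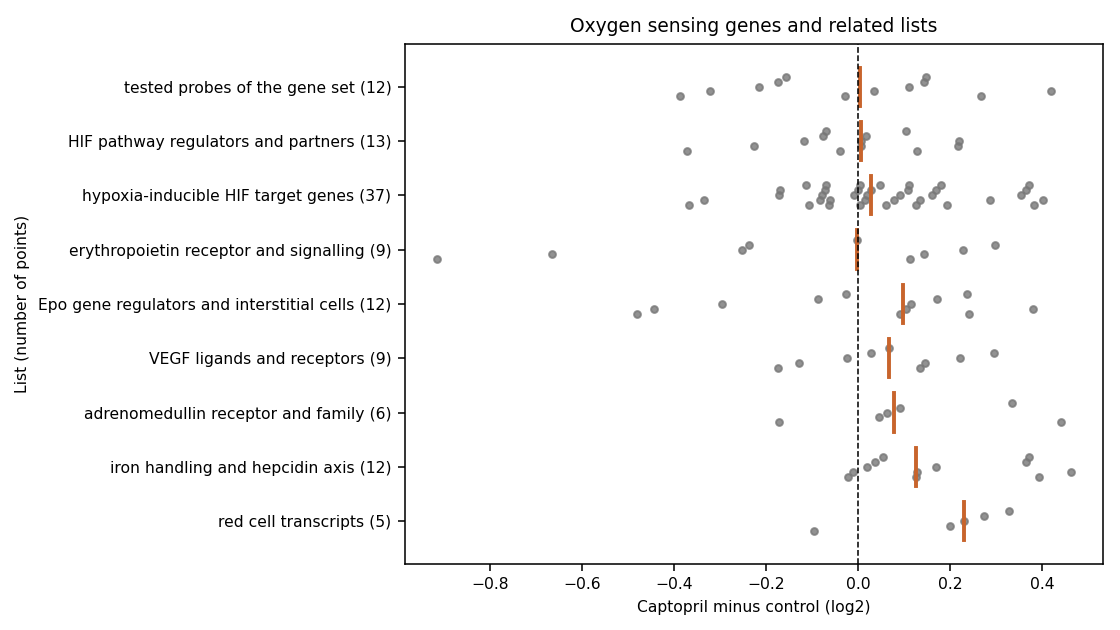
Difference in log2 signal, captopril minus control (horizontal axis), for the 12 tested probes of the gene set and for the tested genes of 8 related lists (vertical axis, number of points in brackets), with medians as vertical bars. The list medians lie between -0.003 and 0.23, and the most negative point is Cish at -0.92.

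Among regulators and partners of HIF, 13 of 20 genes were tested, 7 higher and 6 lower in mean, with 0 called and a median of 0.01. Cul2, the cullin scaffold of the Vhl ligase, had a difference of -0.37 (SE 0.13, unadjusted p = 0.0218 in limma), but its other probe gave 0.20, and the difference was -0.06 in the authors' values. Elob, the elongin B subunit of the same ligase, stood at 0.22 (SE 0.12), with -0.03 at its other probe. Hif1an, the asparaginyl hydroxylase that blocks HIF transactivation, stood at -0.23 (SE 0.14). Every captopril array was below every control, though captopril mouse 2 (8.63) lay only just below control mouse 3 (8.64). The groups of Cul2 and Elob did not overlap either, where 8.69% of all tested probes had no overlap. These genes were named for the smallest unadjusted p of their list, so this is a description.

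Among 51 other hypoxia-inducible targets of HIF, 37 were tested, 23 higher and 14 lower in mean, with 0 called and a median of 0.03. Tfrc, the transferrin receptor, which takes up iron and is a HIF target, read 9.99, 10.03 and 9.95 in controls and 10.34, 10.40 and 10.34 in captopril cortex. Its groups lie apart by more than their own spread, with a difference of 0.37 (SE 0.12) and 0.35 at its other probe. Yet Tfrc did not pass over all probes in limma (adjusted p = 0.995, unadjusted p = 0.0127). In the authors' values its difference was 0.31, with an adjusted p of 0.260 in limma, so its p depended on the processing and it did not pass there either. Stc2, a stanniocalcin gene, stood at -0.37 (SE 0.18) and was detected on 2 of the 3 captopril arrays, and Hmox1, the inducible haem oxygenase, stood at 0.40 (SE 0.19) with overlapping groups. Among glycolytic enzymes Pgk1 stood at 0.14 (SE 0.14), Aldoa at 0.11 (SE 0.13) and Ldha at 0.02 (SE 0.14). Hk1 stood at -0.17 (SE 0.19) and Tpi1 at -0.11 (SE 0.14), though the other Tpi1 probes gave -0.02 and 0.15. The glucose transporter Slc2a1 stood at 0.004 (SE 0.14), and Car9, a carbonic anhydrase strongly dependent on HIF, at -0.34 (SE 0.16) for its brightest probe and at -0.15 and 0.23 for its others. These 7 genes were named after their values were seen.

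Of 15 genes of erythropoietin reception and its signalling, 9 were tested, 4 higher and 5 lower in mean, with 0 called and a median of -0.003. Epor, the erythropoietin receptor, stood at 0.14 (SE 0.13) and was named after its value was seen. The feedback inhibitors of this pathway did not share a direction. Socs3 stood at -0.67 (SE 0.18, unadjusted p = 0.00673 in limma), Socs2 at 0.30 (SE 0.16) and Cish, which varied from 8.56 to 11.31 over the 6 mice, at -0.92 (SE 0.55), which ran from -1.36 to -0.32 with 1 array left out, the smallest without control mouse 2. Socs3 was -0.09 in the authors' values. In captopril mice 2 and 3 it read 5.14 and 5.06, just above the detection limits of their arrays (5.09 and 5.05). The size of its difference is therefore uncertain. These genes also answer to other cytokines.

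The regulators of the Epo gene and markers of the interstitium that makes the hormone had 12 of 15 genes tested, 7 higher and 5 lower in mean, with 0 called and a median of 0.10. Nt5e, the ectonucleotidase CD73 of cortical interstitial fibroblasts and of tubules, read 10.04, 9.88 and 9.91 in controls and 10.47, 10.17 and 10.33 in captopril cortex. The groups do not overlap, and its difference was 0.38 (SE 0.13, unadjusted p = 0.0215 in limma), with 0.14 at its other probe. The collagen gene Col1a1 stood at -0.44 (SE 0.19) and Vim, the intermediate filament vimentin of mesenchymal cells, at -0.48 (SE 0.22), both with overlapping groups, so members of this list differed in sign.

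Of the other VEGF ligands and receptors, 9 of 13 were tested, with 0 called, 0 at an unadjusted p under 0.05 in limma and a median of 0.07. Vegfb, a further ligand of the family, stood at -0.17 (SE 0.13), and Flt1, which encodes the receptor VEGFR1, at 0.14 (SE 0.17). Kdr, the main signalling receptor, was detected on 1 control and 2 captopril arrays, too near the limit for a fold.

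For adrenomedullin, whose receptor is built from Calcrl and a Ramp protein, 6 of 13 listed genes were tested, with 0 called and a median of 0.08. Ramp2, a partner that makes Calcrl an adrenomedullin receptor, read 7.92, 7.83 and 8.11 in controls and 8.59, 8.47 and 8.13 in captopril cortex. Captopril mice 1 and 2 were well above the controls and captopril mouse 3 just above them. The difference was 0.44 (SE 0.16, unadjusted p = 0.0238 in limma), and 0.22 in the authors' values. Ramp3, which also makes Calcrl an adrenomedullin receptor, stood at 0.06 (SE 0.14), with 0.05 to 0.10 at its other probes. It was named after its value was seen. Ramp1, a further receptor partner, was detected in 3 captopril and 0 control mice, so it was tested only through the group where it is high. Adm2, a related peptide, was detected on 2 arrays of each group, and Calcrl was not tested.

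In the iron and hepcidin list, whose genes supply the iron that erythropoiesis consumes, 12 of 16 were tested, 10 higher and 2 lower in mean, with 0 called and a median of 0.13. Trf, the iron carrier transferrin, read 6.87, 6.98 and 6.81 in controls and 7.18, 7.57 and 7.30 in captopril cortex. Its difference was 0.46 (SE 0.14, unadjusted p = 0.0120 in limma) with no overlap, and 0.15 in the authors' values. Aco1, the cytosolic aconitase that also acts as an iron-regulatory protein, stood at 0.39 (SE 0.15, unadjusted p = 0.0326 in limma), again with no overlap and 0.14 in the authors' values, and Tfrc is counted here as well.

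Red cell transcripts were listed as a readout of blood left in the tissue. Of 12 genes 5 were tested, 4 higher and 1 lower in mean, with 0 called and a median of 0.23. Their summed normalized intensity ran from 24100 to 46800 in control and from 30000 to 48100 in captopril arrays, a spread within groups that was wider than the difference between them. Hba-a1 stood at 0.28 (SE 0.29), Hbb-bt at 0.33 (SE 0.29) and Hbb-bs at 0.23 (SE 0.27). The lower gene, Slc4a1, named after its value was seen, stood at -0.10 (SE 0.14). Its SD over the 6 mice was 0.13, against 0.40 for Hbb-bs and 0.45 for Hba-a1, so it did not vary as these haemoglobin genes did. What Slc4a1 reports in this tissue was not tested. The near-identical haemoglobin genes may share signal.

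As a check of the tissue, 14 of 15 proximal tubule markers were detected widely enough to be tested, and so were 12 of 13 markers of thick limb, distal tubule and collecting duct, 12 of 12 endothelial and 5 of 8 medullary ones, whereas 0 of 8 adrenal markers were. None of these genes passed in limma. Proximal tubule genes were 8 higher and 6 lower in mean, with a median of 0.02, and ranged from Slc13a3 at -0.22 to Acsm2 at 0.46. Distal genes were 7 higher and 5 lower, with a median of 0.02, and Pvalb stood at 0.36 (SE 0.15) beside Cldn16 at -0.23. Endothelial genes were 6 higher and 6 lower, with a median of -0.02. Eng stood at -0.28 (SE 0.12), Esam at -0.25 (SE 0.13) and Cldn5 at -0.16 (SE 0.12), beside Tek at 0.22 (SE 0.26). Medullary genes were 3 higher and 2 lower, with a median of 0.10, and Cryab stood at 0.23 (SE 0.14) beside Fxyd4 at -0.11. Slc13a3 and Tek were named after their values were seen. Adipocyte markers varied widely within both groups. Of 10, 4 were tested, 4 of 4 higher in mean with a median of 0.65 and 0 called, and their summed normalized intensity was 110 to 247 in control and 120 to 442 in captopril arrays, highest in captopril mice 1 and 3. Cidea, of brown fat, was detected on 2 arrays of each group. The part of adipose tissue in the values of the oxygen sensing genes was not tested. Without captopril mice 1 and 3, which leaves 1 captopril mouse, the differences of the 12 probes ran from -0.68 to 0.46 with 0 called, and those of Arnt ILMN_1231986 (0.21) and Egln2 (-0.07) turned in sign.

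Of the members detected on all arrays, Hif1a varied most over the 6 mice, with an SD of 0.34 for ILMN_2852034. Among 8302 other named genes detected on all arrays, those nearest to its pattern, by the root mean square difference of log2 values centred over the 6 mice, were Socs2 (0.0952), Cep126 (0.102) and Slco2b1 (0.107), where the median gene was at 0.347. The 3 genes are given as a description.

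**Figure D5:**
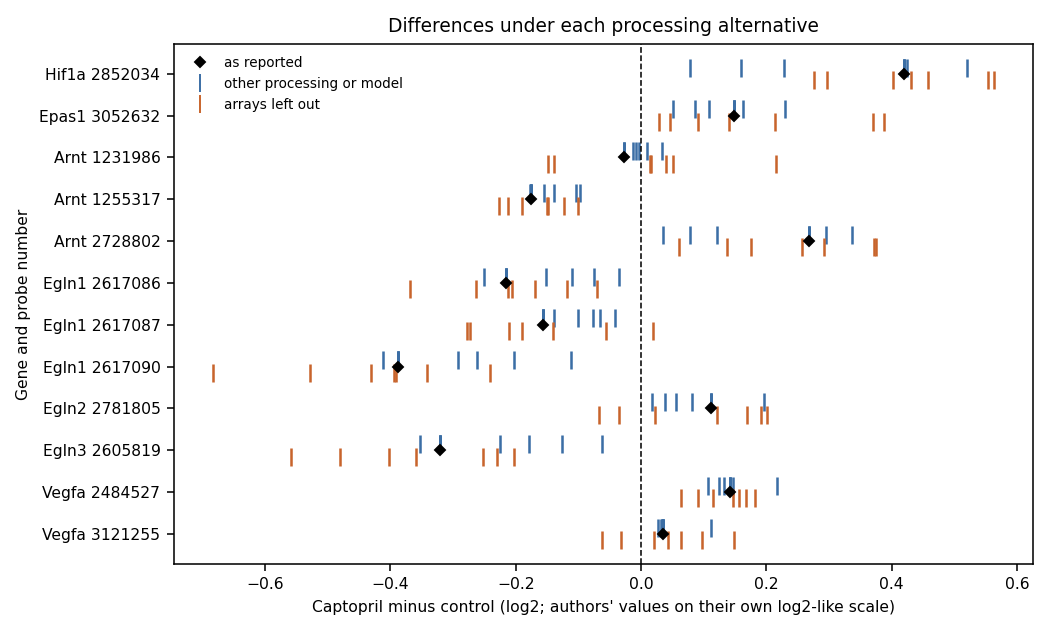
Difference in log2 signal, captopril minus control (horizontal axis), of the 12 tested probes (vertical axis) as reported (diamonds), under other processing or models (upper ticks) and with arrays left out (lower ticks). The ticks of Hif1a stay above 0 and those of Egln3 and of Egln1 probe ILMN_2617090 below it, whereas those of Arnt probe ILMN_1231986, Egln1 probe ILMN_2617087, Egln2 and Vegfa probe ILMN_3121255 cross it.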

How the data were processed

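RNA of 6 kidney cortices, 3 per group by the titles in the labels, was read on Illumina MouseWG-6 v2 arrays. The deposited table gave a signal intensity and a detection p-value per probe and array, per the file headers. Array medians of the intensity were 111 to 147, so it was not normalized between arrays, and 36.2% to 38.2% of probes were detected. The authors' processed values are on a log2-like scale compressed at the dim end (slope 0.38 to 0.44 under an intensity of 150), rank the probes as the signal does and are not centred. No source used here states their transform, and lumi is named per the submitters' processing notes.

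limma 3.58.1 in R 4.3.3 corrected background with neqc (negative controls inferred from detection p, offset 16, quantiles, log2). lmFit and eBayes compared the groups over 16500 probes, two-sided, with Benjamini-Hochberg adjustment. An exact permutation of 3 against 3 cannot go below p = 0.1. The fit was tested on simulated data. Array pairs correlated at 0.984 to 0.987, and 0 pairs held identical values.

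GEO's annotation gave 34885 probes exactly 1 symbol and left 10396 without one. Every member probe is named. From other lists up to 3 genes with the smallest unadjusted p were named, unless stated. The members and lists were chosen with earlier results of these data known. Alternatives covered background, scaling, filter, model, a replicate block and arrays left out.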

Additional observations from a re-analysis of the deposited data

How the results depend on the processing

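No probe of the 10 genes and none of the hypoxia-inducible targets was called under any of the 16 alternatives. The count of 3 called probes over the whole array became 5 with trend and robust options, 0 with the replicate block and 0 without captopril mice 1 and 3 (chosen after seeing the data), and was 2 whichever single array was left out. The median over member probes, 0.004 as reported, was 0.0729 with median scaling, 0.0574 without a filter and -0.157 with detection p under 0.01 on all arrays, which kept 9 member probes, and it ran from -0.0592 to 0.0539 with 1 array left out. The median over probes of hypoxia-inducible targets, 0.0582 as reported, was 0.0341 without background correction, 0.134 with median scaling and 0.0206 in the authors' values, and ran from 0.0381 to 0.0937 with 1 array left out. Median scaling moved the median of all probes to 0.0756. The cause of these shifts was not tested. Of 189 values of member probes, 177 kept their sign and 12 turned. Arnt ILMN_1231986 turned to 0.0333 with median scaling, 0.0103 with array weights and 0.215 without captopril mice 1 and 3, and ran from -0.149 to 0.0512 with 1 array left out. With 1 array left out, Egln1 ILMN_2617087 ran from -0.278 to 0.0185, Egln2 ILMN_2781805 from -0.0359 to 0.201, Vegfa ILMN_3121255 from -0.0627 to 0.148 and Hba-a1 ILMN_1212702 from -0.00148 to 0.553. Without captopril mice 1 and 3, where the lone captopril mouse is assumed to vary like the controls, Egln2 stood at -0.0674, Kdr at -0.158, Cdkn1c at 0.0293, Slc14a2 at -0.308, Cidea at -0.516, Ucp1 at -0.476 and Adipoq at -0.470. That mouse was below its detection limit for Kdr, Cidea, Ucp1 and Adipoq, so these 4 values give no size. Same-numbered mice deviated from their group means with correlations of 0.00447, 0.00993 and 0.0424. Differently numbered mice gave -0.0552 to 0.0412. No pairing by number was visible, but with 3 mice a group these values cannot exclude one. Signal near background limits Epo, Vhl and Adm.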
